A study of Mus musculus with 3 samples.

Results

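The semaphorins, plexins and neuropilins were taken as all counted genes whose symbols follow the naming of these families (Sema with a digit from 3 to 7 and a letter, Plxn with a letter from a to d and, where present, a digit, and Nrp1 and Nrp2). The rule used symbols and no measured level. It gave 31 of 31055 genes. Of these, 20 are semaphorins, the ligand side, and 9 plexins and 2 neuropilins make up the receptor side. Nuclei came from the olfactory bulb (OB) of 3 adult C57Bl/6 mice, males of 7 weeks per the study's methods, with 1 library per mouse. All 3 mice had received the same retroAAV-CAG-H2B-GFP, a retrogradely transported virus with a nuclear green fluorescent protein under a ubiquitous promoter, in the piriform cortex (PCx) and the anterior olfactory nucleus (AON), and nuclei with this protein were sorted. The mice form 1 group without an untreated control, so that levels were compared between cell types within these mice, and while the promoter selects no cell type, the retrograde label and the sort enrich for projection neurons, so that the other cells described here are those that passed the same sort.

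Semaphorins are secreted or membrane-bound guidance cues. Plexins are their signalling receptors, and neuropilins bind the secreted class 3 semaphorins and hand the signal to A-type plexins in the same membrane. In the olfactory system these families are known for sorting sensory axons in the OB and for steering the axons of mitral and tufted cells, the 2 classes of OB projection neurons, and in the adult they also act at synapses and in glia.

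The libraries of the 3 mice held 58526996 to 213891496 unique molecular identifiers (UMIs, tags that count captured RNA molecules) in 4753 to 21105 nuclei, and 8 to 39 barcodes were shared between pairs of mice. Types and classes were named from marker lists without family members, those of the types being the study's own, chosen on these samples. The 7 types carried 6 of 7 listed markers (ET4) to 13 of 13 (M1). Among the subclusters of projection neurons these gave the mitral-cell-like types M1, M2 and M3 and the tufted-cell-like types T1, ET1, ET2 and ET4, with 326 nuclei in M3 to 2128 in T1, and among the other clusters 10 of inhibitory neurons with 21236 nuclei and 5 glial classes. Cluster 18 carried all 6 vascular markers listed, but its 10 leading genes held Slc6a20a, Dcn, Slc6a13 and Mgp, known from fibroblasts and mural cells, beside Ly6c1, Slco1a4 and Ly6a of endothelial cells, and it is therefore called by its number. Levels are given in CPM, the UMIs of a gene per 1000000 UMIs of all nuclei of a type in a mouse. They are compared for 1 gene between types, and not between genes.

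The M1 library of mouse 1 stood apart. It held 14 nuclei, against 465 and 207 in mice 2 and 3, and family members differed in it from the other M1 libraries. Sema6d was at 334, 41.1 and 24.3 CPM in mice 1, 2 and 3, and Plxna2 at 124, 20.5 and 14.5 CPM. Without this library M1 had the same 8 members called higher than in the other types, and Sema6d, which was not called with it (log2 fold change -0.90 ± 0.37 (SE), adjusted p = 0.0758, edgeR), was called lower without it (log2 fold change -1.53 ± 0.19, adjusted p = 6.0e-07, edgeR). Levels in M1 are therefore given per mouse where a gene is described, and means that include this library are set beside those without it.

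Levels of all tested members differed between the 7 projection neuron types. The test of any difference called 26 of 26 members at an adjusted p under 0.05 (edgeR), where 64.8% of all genes were called, and all 18 semaphorins, 6 plexins and 2 neuropilins with enough counts were among them. The other 5 members (Plxnb1, Plxnb3, Plxnd1, Sema3b and Sema3g) were too low in projection neurons to be tested. The clusters had been formed on the same counts, so that the p-values are not independent of how the types were drawn. They say nothing on whether the types are separate, and how far the types differ is read from the levels and fold changes. On the log2(CPM + 1) scale, the widest ranges of means between types were those of Nrp2 (1.80 to 608 CPM), Sema3a (9.51 to 610.4 CPM), Sema5b (8.37 to 394 CPM), Sema3e (7.81 to 271 CPM) and Sema5a (11.7 to 391 CPM). Without the small library the M1 means were 719 CPM for Nrp2, 617 for Sema3a, where M1 then took the upper end from ET2, 9.45 for Sema5b, 280.1 for Sema3e and 439 for Sema5a. At the other end, the means of Sema4b, Sema4f and Sema6a spanned 2.13-, 2.31- and 2.28-fold between types. Without the small library M1 had the lowest mean of Sema4b (8.99 CPM), and ET2, at 15.7 CPM, led for Sema4f in place of M1. Calls of 4 low members rested on single mice or on the filter. Sema3c and Sema4c were not called without mouse 1 (adjusted p = 0.200 and 0.0794, edgeR), Sema4b without mouse 1 or 2 (0.358 and 0.156) and Sema4f without any single mouse (0.0581, 0.431 and 0.118 without mice 1, 2 and 3) nor without the filter on low counts (0.112).

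**Figure D1:**
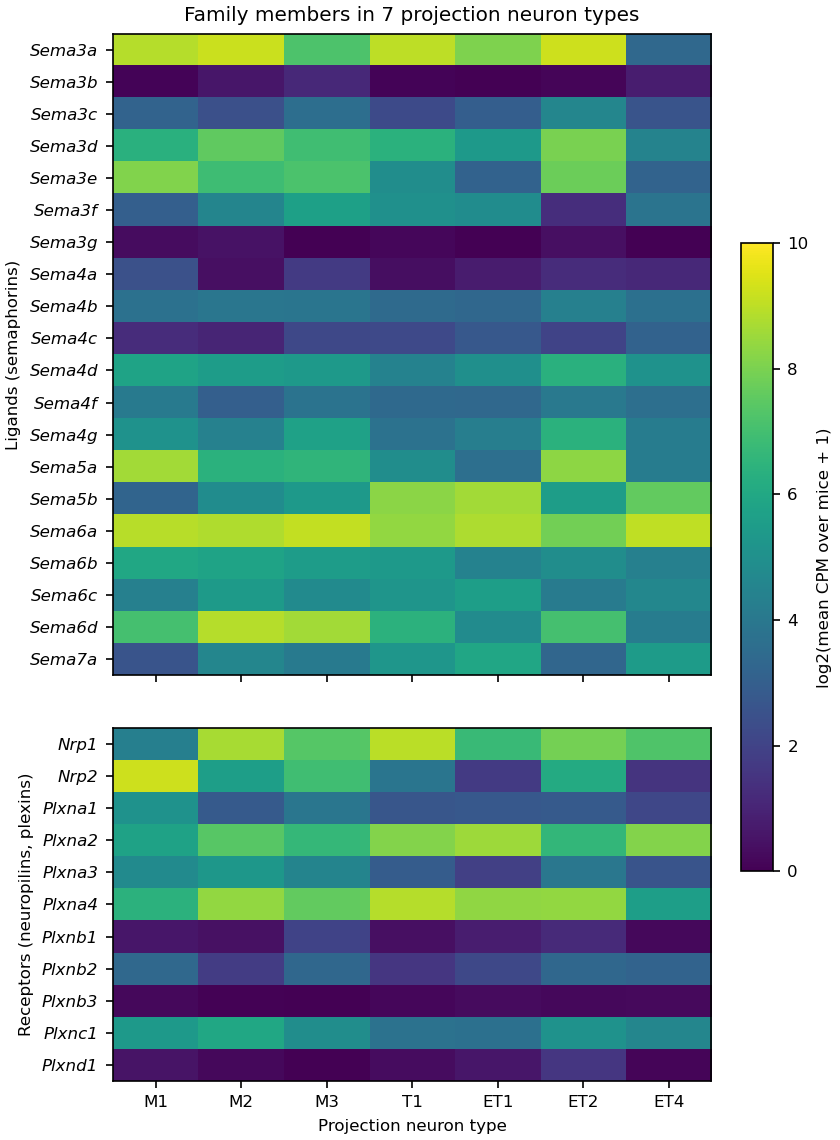
Mean level of each family member over 3 mice in the 7 projection neuron types (columns), as log2(CPM + 1) in colour, with the ligands in the upper and the receptors in the lower panel and each row read along its own gene. Sema6a is high in every type, Sema3a is high in 5 types and at 9.51 CPM in ET4, Nrp2 peaks in M1, and Plxnb1, Plxnb3, Plxnd1, Sema3b and Sema3g are low throughout.

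Of the secreted class 3 semaphorins, Sema3a, a repellent ligand that binds Nrp1, was high in most projection neurons and almost missing from ET4. It was at 598, 552 and 681 CPM in ET2 in mice 1, 2 and 3, at 658, 565 and 556 CPM in M2, at 192, 499 and 736 CPM in M1, where the first value is that of the library with 14 nuclei, and at 10.4, 8.38 and 9.78 CPM in ET4. The ET4 libraries lay below those of the other 6 types without overlap (log2 fold change -5.51 ± 0.37 (SE), adjusted p = 4.0e-12, edgeR). The order of the means was ET2, M2, T1, M1, ET1, M3 and ET4. Without the small library the M1 mean was 617 CPM, which put M1 first. ET2 and M2 overlapped, T1 lay just below both, and M1 overlapped with all 3 of them, and with ET1 and M3 only through the small library. ET1 and M3 overlapped as well.

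Sema3e, a ligand that can bind plexin D1 without a neuropilin, was at 254, 276 and 284 CPM in M1 and at 269.6, 192 and 176 CPM in ET2. It was lower in M3, at 133, 118 and 180.4 CPM, and in M2, at 109.9, 113 and 128 CPM. In T1 the libraries had 32.6, 25.6 and 28.4 CPM, and the 6 libraries of ET1 and ET4 had at most 10.8 CPM. Sema3e was thus called higher in all 3 mitral types and in ET2, with log2 fold changes of 2.65 ± 0.13, 1.37 ± 0.14, 1.33 ± 0.17 and 2.12 ± 0.14 (SE) and adjusted p-values of 5.1e-14, 1.1e-08, 2.3e-06 and 4.6e-12 (edgeR). M1 and ET2 overlapped, as did M3 with M2 and with the lowest ET2 library. Sema3e overlaps the counted gene Gm4128, and how reads were divided between them is not given in the sources used here.

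Sema3d, a further class 3 ligand, had its highest level in ET2 (260.4, 194 and 305 CPM) and its lowest in ET4 (21.1, 20.7 and 21.7 CPM), and it was called higher in ET2 and M2, whose libraries overlapped. Sema3f, which binds Nrp2, was highest in M3, at 59.9, 46.8 and 45.1 CPM, above all libraries of the other types. In ET2 it was close to the floor, with 0, 2.32 and 2.12 CPM (log2 fold change -3.43 ± 0.43, adjusted p = 5.1e-07, edgeR). Sema3c stayed low in the 7 types, with means of 3.73 to 23.1 CPM. Of the genes of this class Sema3d, Sema3a, Sema3e and Sema3c lie on chromosome 5 within 5.35 Mb (GRCm38, chr5:12383385-17730268), and their orders of types differed: ET2 led for Sema3c and Sema3d and M1 for Sema3e, and for Sema3a ET2 led with the small M1 library and M1 without it.

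Among the membrane-bound ligands, Sema5b was high in the tufted types T1, ET1 and ET4, but not in ET2. It was at 404, 389.9 and 388 CPM in ET1, at 303, 304 and 317 CPM in T1 and at 142, 158 and 272 CPM in ET4. Each of these 3 types lay above ET2 (49.8, 36.9 and 53.6 CPM) and above the mitral types, the lowest being M1 (6.19, 10.5 and 8.37 CPM). ET2 overlapped with the mitral type M3 (34.5, 60.9 and 25.8 CPM). ET1, T1 and ET4 did not overlap with each other. Its paralogue Sema5a was highest in M1 and ET2 and lowest in ET1, with 297, 422 and 456 CPM in M1, 356, 336 and 246 CPM in ET2 and 10.3, 13.7 and 11.2 CPM in ET1. Both proteins carry thrombospondin repeats and bind A-type plexins. Sema5a was called higher in M1 and ET2 (log2 fold changes 3.06 ± 0.12 and 2.53 ± 0.12, adjusted p = 5.0e-16 and 1.1e-14, edgeR), and Sema5b in T1, ET1 and ET4 (2.53 ± 0.13, 2.89 ± 0.14 and 1.45 ± 0.15, adjusted p = 7.9e-14, 1.3e-14 and 1.5e-08).

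Sema6d, a transmembrane ligand of A-type plexins, was at 487, 438 and 506 CPM in M2 and at 441, 335 and 388 CPM in M3. M2 and M3 overlapped, and both lay above T1 (83.0, 83.5 and 85.9 CPM), ET1 (18.4, 26.3 and 36.9 CPM) and ET4 (11.2, 20.7 and 21.0 CPM) in every mouse. In M1 the libraries of mice 2 and 3 lay below T1, and that of mouse 1, with 14 nuclei, lay close to the lowest M3 library. Sema6a, of the same class, was at means of 235 CPM in ET2 to 536 CPM in M3 and was called in 1 of the 7 contrasts between types, lower in ET2 (log2 fold change -1.02 ± 0.11, adjusted p = 2.4e-08, edgeR). That call rested on the TMM scaling, with a log2 fold change of -0.96 on library size alone. Sema7a, a lipid-anchored ligand of plexin C1 and integrin beta 1, had its highest mean in ET1 and its lowest in M1, as did Sema5b. It was at 64.2, 47.1 and 68.5 CPM in ET1, 49.0, 40.9 and 41.9 CPM in ET4 and 12.4, 2.16 and 0.797 CPM in M1. The 6 class 4 semaphorins were low to moderate, with highest means of 4.56 CPM for Sema4a in M1 (3.75 without the small library) to 83.5 CPM for Sema4g in ET2. Sema4g in ET2 lay above all libraries of the other types, at 77.5, 85.4 and 87.5 CPM.

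The 2 neuropilins, which bind class 3 ligands, were highest in different types. Nrp1, the receptor subunit for Sema3a, was at 448, 541 and 518 CPM in T1 in mice 1, 2 and 3. It was at 399.9, 411 and 430.3 CPM in M2 and at 207, 211 and 299.8 CPM in ET2. M3 had 151, 167 and 172 CPM, ET4 142, 147 and 162 CPM and ET1 97.4, 119 and 113 CPM. In M1 Nrp1 was at 43.3, 8.03 and 5.78 CPM, below all 18 other libraries. M3 and ET4 overlapped, and the other neighbours in this order did not. Nrp1 was called higher in T1 and M2 (log2 fold changes 2.27 ± 0.12 and 1.98 ± 0.12, adjusted p = 4.3e-14 and 1.4e-12, edgeR) and lower in M1 (-4.80 ± 0.24, adjusted p = 3.2e-14).

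Nrp2, the receptor subunit for Sema3f, was at 384, 679 and 760.2 CPM in M1, above all libraries of the other types. It followed in M3 with 136, 132 and 93.4 CPM, in ET2 with 77.5, 39.2 and 85.4 CPM and in M2 with 34.4, 54.0 and 54.1 CPM. T1 had 13.1, 12.9 and 14.8 CPM, and ET1 and ET4 had at most 2.91 CPM in any mouse. M3 did not overlap with ET2, ET2 overlapped with M2, T1 lay below both, and ET1 and ET4 overlapped. The log2 fold change of M1 against the other 6 types was 5.23 ± 0.17 (SE, adjusted p = 1.5e-17, edgeR), and 5.45 ± 0.15 without the small M1 library. M1 thus had the highest Nrp2 and the lowest Nrp1 of the 7 types, and T1 the highest Nrp1 with little Nrp2. Nrp2 was among the 10 leading genes of cluster 13, which has Cntn6 and Ebf1 in common with those of M1, so that its level there also describes how the cluster was formed. Nrp2 overlaps the counted gene Gm29083.

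**Figure D2:**
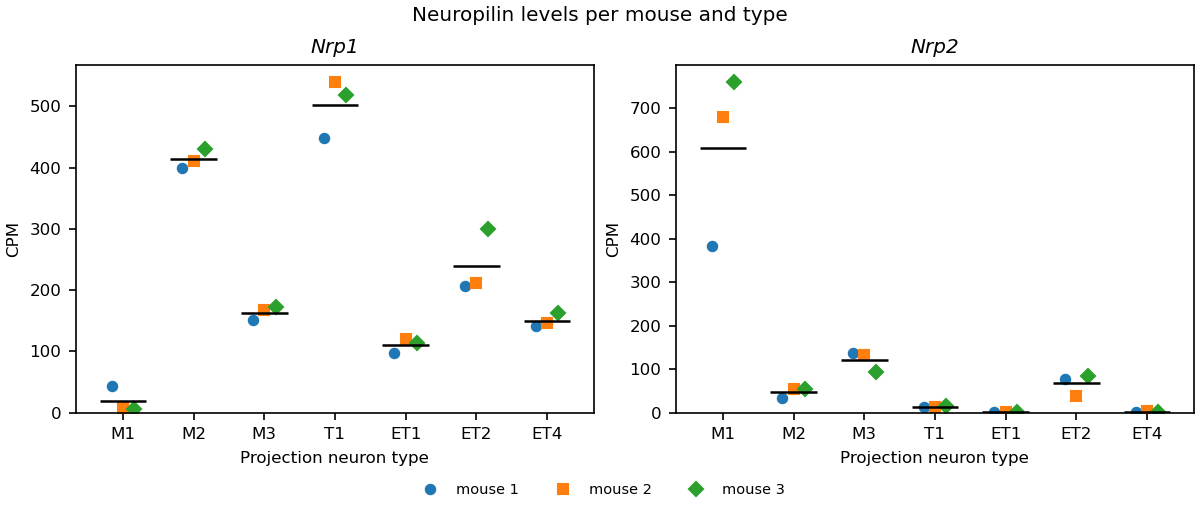
Levels of Nrp1 (left) and Nrp2 (right) in CPM in the 7 projection neuron types, with 1 symbol per mouse and a line at the mean of the 3 mice. Nrp1 is highest in T1 and M2 and lowest in M1, and Nrp2 is highest in M1, where the mouse with 14 nuclei lies below the other mice, and lowest in ET1 and ET4.

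Detection in single nuclei followed the same division. With all nuclei thinned to 3000 UMIs, Nrp1 was found in 69.8% ± 5.29 of T1 nuclei and Nrp2 in 4.06% ± 0.188 (mean ± SD over 3 mice). In M1 Nrp1 was found in 7.14% (1 of 14 nuclei), 0.647% and 1.97% of nuclei in mice 1, 2 and 3, and Nrp2 in 7 of 14, 81.3% and 83.7%, with means of 1.31% and 82.5% without mouse 1. M2 had 63.3% ± 3.18 and 13.3% ± 2.15, and M3 had 27.1% ± 6.84 and 22.8% ± 5.10. Without thinning, at a median of 15750 UMIs in T1 and 18005 in M1, T1 had Nrp1 in 94.5% ± 2.22 and Nrp2 in 12.9% ± 1.85 of nuclei (SD, n = 3 mice). In unthinned M1 nuclei Nrp1 was found in 28.6% (4 of 14), 4.95% and 5.80% and Nrp2 in 64.3%, 97.8% and 94.7% in mice 1, 2 and 3, with means of 5.37% and 96.3% without mouse 1. Both neuropilins were found together in 8.20% ± 2.07 of thinned M2 nuclei, where the product of their shares in each mouse gave a mean of 8.44%, in 5.90% ± 5.03 of M3 nuclei (6.41%) and in 5.51% ± 3.43 of ET2 nuclei (4.78%). Without thinning, M3 had both in 17.4%, 19.0% and 15.7% of nuclei in mice 1, 2 and 3, above the products of the shares in each mouse (15.8%, 12.8% and 12.8%). This was not particular to M3. Unthinned M1, T1 and ET2 also lay above the product in each mouse, with means of 12.6% against 12.2% in T1 and 21.5% against 19.8% in ET2. M2 did so in mice 1 and 3 only, ET4 in mice 2 and 3 only and ET1 in mouse 1 only. As a reference for low detection, inhibitory cluster 3, chosen after the values were seen as the lowest in Nrp1, had 0.953% ± 0.494 of nuclei with Nrp1 and 0.756% ± 0.265 with Nrp2 when thinned, and 2.44% and 2.11% at median depths of 8928 to 12482 UMIs. For Nrp2, cluster 15 had the lowest mean level, at 2.31 CPM. Whether the counts in cluster 3 are free RNA was not tested. Nrp2 in ET1 (0.370% ± 0.460) and ET4 (0.817% ± 0.981) was near the share of cluster 3, and Nrp1 in thinned M1 nuclei of mice 2 and 3 lay on either side of the Nrp1 share of that cluster. Microglia could not serve as such a reference, since they had 40.7% ± 17.8 of thinned nuclei with Nrp1. Thinning left out 68 of 326 M3 nuclei and at most 11 nuclei of any other projection neuron type, but 55 of 146 microglia.

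The plexins, which carry the signal into the cell, were also divided between types. Plxna4, a partner of Nrp1 in the response to Sema3a, was at 484, 474 and 453 CPM in T1, 329, 329 and 326 CPM in M2 and 49.4, 38.5 and 54.5 CPM in ET4. The order of its means was T1, ET2, M2, ET1, M3, M1 and ET4. T1 was apart from all other libraries, and ET2, M2 and ET1 overlapped. It was called higher in T1 (log2 fold change 1.57 ± 0.09, adjusted p = 5.5e-13, edgeR) and lower in ET4 and M1 (-2.59 ± 0.13 and -1.38 ± 0.13, adjusted p = 2.9e-14 and 4.7e-09). T1 was the highest type for both Nrp1 and Plxna4. The gene spans those of 3 antisense genes, Plxna4os1 to Plxna4os3.

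Plxna2, a receptor for Sema6a, was highest in ET1, at 408, 367 and 344 CPM, which lay apart from T1 (309, 279 and 268 CPM) and ET4 (283, 287 and 265 CPM). It was lowest in M1, at 124, 20.5 and 14.5 CPM. Plxna1 had its highest mean in M1, at 12.4, 43.4 and 42.6 CPM with mouse 1 inside the range of M3, and at means of 3.32 to 14.1 CPM in the other types (log2 fold change 2.67 ± 0.20, adjusted p = 8.1e-11, edgeR). Plxnc1, the receptor for Sema7a, was highest in M2, at 60.5, 54.1 and 66.4 CPM, and lowest in ET1, at 14.4, 11.5 and 9.72 CPM, and so had its low end where Sema7a had its high end. Plxnb2 reached 9.51 CPM at most, in M1, where the small library of mouse 1 had 18.6 and the others 6.59 and 3.39 CPM. Without that library the highest mean was 9.05 CPM, in M3.

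**Figure D3:**
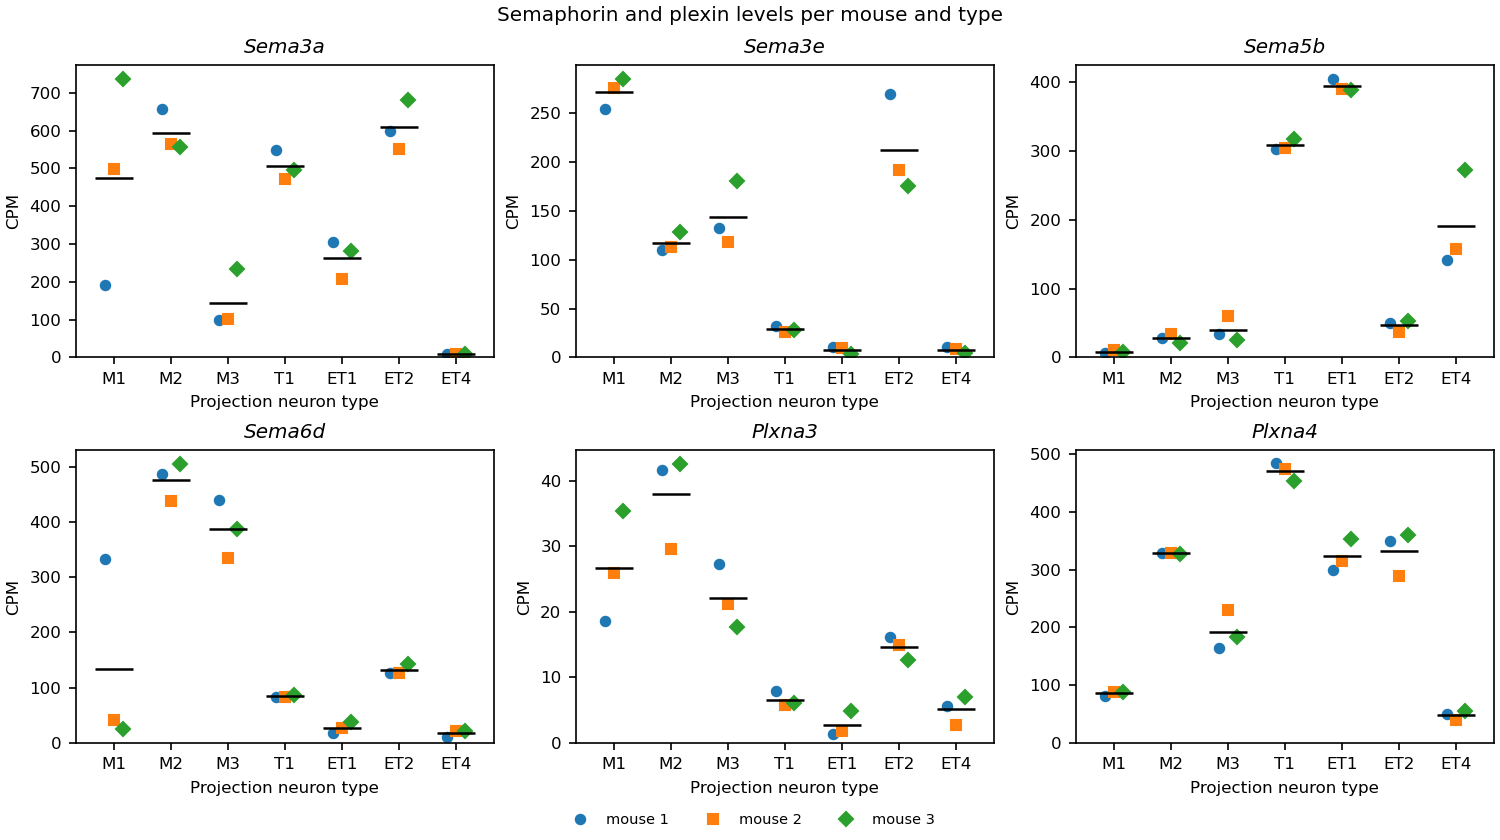
Levels of 4 semaphorins and 2 plexins in CPM in the 7 projection neuron types, with 1 symbol per mouse, a line at the mean and a separate scale for each gene. Sema5b is high in T1, ET1 and ET4, Sema3e in M1 and ET2, Sema6d in M2 and M3 with 1 high M1 library, Plxna3 in the 3 mitral types, and Sema3a and Plxna4 fall to their lowest in ET4.

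Members called higher and lower were then counted for each type (adjusted p under 0.05 and a change of more than 1 on the log2 scale against the mean of the other 6 types, edgeR). M1 had 8 of 26 members called higher, with 7.81% of all genes called, namely the receptors Nrp2, Plxna1, Plxna3 and Plxnc1 and the ligands Sema5a, Sema3e, Sema4a and Sema3a. M2 had 8 (6.83% of all genes), the receptors Nrp1, Nrp2, Plxna3 and Plxnc1 and the ligands Sema6d, Sema3a, Sema3d and Sema3e. M3 had 4 (5.37%), Nrp2, Sema6d, Sema3f and Sema3e. T1 had 7 (6.68%), the receptors Nrp1, Plxna4 and Plxna2 and the ligands Sema5b, Sema3f, Sema3a and Sema7a. ET1 had 4 (5.17%), Plxna2, Sema5b, Sema7a and Sema3f. ET2 had 9 (7.64%), of which 7 were ligands (Sema5a, Sema3e, Sema4g, Sema3d, Sema3c, Sema3a and Sema4d) beside Nrp2 and Plxnb2. ET4 had 4 (8.72%), Plxna2, Sema7a, Sema4c and Sema5b. The share of members called higher was above that of all genes in each of the 7 types.

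In the other direction, ET4 had the most members called lower, 10 of 26, with 9.32% of all genes called. They were Nrp2, Plxna4, Plxna3 and Plxna1 and the ligands Sema3a, Sema3e, Sema6d, Sema3d, Sema5a and Sema6b. ET1 had 7 (3.44% of all genes), Nrp2, Plxna3, Plxnc1, Sema3e, Sema5a, Sema6d and Sema3d. T1 had 7 (5.50%), Nrp2, Plxnb2, Plxnc1, Sema4a, Sema5a, Sema4g and Sema3e. M1 had 6 (4.04%), Nrp1, Plxna2, Plxna4, Sema7a, Sema5b and Sema3f. ET2 had 4 (6.18%), Sema3f, Sema7a, Sema6a and Sema6c, and the other mitral types had few, M2 Sema4c and Sema5b (2 members, 5.29% of all genes) and M3 Sema5b alone (1 member, 3.20%).

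The median log2 fold change over the 26 members ranged from -0.45 in ET4 to 0.59 in M2, where the medians over all genes ranged from -0.05 to 0.04. Calls near a threshold depended on single mice or settings. Of the higher calls, Plxnc1 in M1 fell to a log2 fold change of 0.96 and Plxnb2 in ET2 to 0.65 without mouse 2, and Nrp2 and Sema4d in ET2 to 0.97 and 0.92 without mouse 3. Nrp2 in M2 fell to 0.97 without mouse 3, to 0.84 on library size alone, to 0.99 by DESeq2 and to 0.97 with sums of at least 20 nuclei, and Plxna2 in ET4 to 0.93 without mouse 2 and to 0.91 by DESeq2. Sema4c in ET4 and Sema3c in ET2 were not called without mouse 1 (adjusted p = 0.171 and 0.174, edgeR). Of the lower calls, Sema5b in M3 reached -0.90 on library size alone and -0.87 without mouse 3, Sema6b in ET4 -0.91 and -0.93 likewise, with a fold change just short of the threshold without mouse 1, and Sema6c in ET2 -0.95 on library size alone, -0.94 without mouse 3 and -0.99 with the mouse as a block. In T1 Nrp2 and Sema3e reached -0.93 and -0.95 without mouse 2 and Sema4g -0.96 without mouse 3, and Sema3e -0.98 without the filter on low counts. Sema4a in T1 and Sema4c in M2 were not called without mouse 1 (adjusted p = 0.0702 and 0.0698, edgeR) or mouse 3 (0.156 and 0.0628), nor Sema7a in ET2 without mouse 2 (0.0507). Sema4a, called higher in M1 and lower in T1, was too low for the test without mouse 2. The block gave M3 2 members called lower and M1 7.

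Mitral and tufted types were compared as classes, the mean of M1, M2 and M3 against the mean of T1, ET1, ET2 and ET4. Of 26 members, 8 were called higher in mitral types, where 5.53% of all genes were called, and 5 in tufted types (3.81%). The mitral members were the receptors Nrp2, Plxna3, Plxna1 and Plxnc1 and the ligands Sema3e, Sema6d, Sema5a and Sema3a, and the tufted members were Nrp1 and Plxna2 and the ligands Sema5b, Sema7a and Sema4c. The largest were Nrp2 in mitral types (log2 fold change 4.22 ± 0.19 (SE), adjusted p = 2.8e-15, edgeR) and Sema5b in tufted types (-2.99 ± 0.14, adjusted p = 1.0e-14). Plxna3, a receptor used with Nrp2 in the response to Sema3f, was the only 1 of 26 members whose 9 mitral and 12 tufted libraries did not overlap, where 0.490% of all genes lay higher in mitral and 0.211% higher in tufted types without overlap. It ranged from 17.7 to 42.6 CPM with a median of 27.2 in mitral libraries and from 1.35 to 16.2 CPM with a median of 5.89 in tufted libraries (log2 fold change 2.37 ± 0.18, adjusted p = 8.4e-11, edgeR). For Nrp2 the mitral libraries had 34.4 to 760.2 CPM and the tufted libraries 0.399 to 85.4 CPM, with ET2 of the tufted side inside the mitral range. The class calls do not hold for each type of a class. Nrp1, on the tufted side, was second highest in the mitral type M2 and had a higher mean in M3 than in ET1 and ET4, and its mitral mean included M1, at 19.0 CPM (6.90 without the small library). Sema3a, on the mitral side, had a lower mean in M3 (145 CPM) than in T1, ET1 and ET2. Sema6d, also on the mitral side, was high in M2 and M3 only. In M1 its mean was 32.7 CPM without the small library, with both libraries below T1. It was then called lower in M1 than in the other types (log2 fold change -1.53 ± 0.19, adjusted p = 6.0e-07, edgeR). ET2 also had mitral-side levels of Sema3e and Sema5a and the highest Plxna3 of the tufted types. Of the tufted members, Sema5b in ET2 overlapped with M3, and Sema7a was called lower in ET2 than in the other types. The call of Sema3a fell to a log2 fold change of 0.81 without mouse 3, and that of Sema4c was lost without mouse 1 or mouse 3 (adjusted p = 0.0645 and 0.0835, edgeR). The small M1 library did not move these counts, which were 8 and 5 without it.

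Sequence before the start sites is shown for 4 members called higher in mitral types and, beside them, for Sema7a of the tufted side. The bases come from RefSeq windows (GRCm38.p6), cut off before the first annotated transcribed base, 5′ to 3′ on the plus strand, and cover chr1:62703067-62703284 for Nrp2, chr5:14025026-14025275 for Sema3e, chr15:32244563-32244809 for Sema5a, chrX:74328816-74329065 for Plxna3 and chr9:57939862-57940111 for Sema7a. Capitals mark the letters CCCNNGGG, the core bound by early B cell factors (Ebf), searched because Ebf1 was among the 10 leading genes of M1 and Ebf2 and Ebf3 among those of ET2. These letters read the same on both strands.
Nrp2: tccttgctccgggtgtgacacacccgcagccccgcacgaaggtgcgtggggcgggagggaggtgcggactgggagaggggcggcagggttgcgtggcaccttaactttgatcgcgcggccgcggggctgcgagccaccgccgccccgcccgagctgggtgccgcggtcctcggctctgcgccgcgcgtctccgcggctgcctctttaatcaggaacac
Sema3e: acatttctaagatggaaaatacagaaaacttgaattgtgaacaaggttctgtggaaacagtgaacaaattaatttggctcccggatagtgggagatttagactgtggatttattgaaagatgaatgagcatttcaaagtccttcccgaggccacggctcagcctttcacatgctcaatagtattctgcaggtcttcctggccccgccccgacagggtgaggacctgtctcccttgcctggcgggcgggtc
Sema5a: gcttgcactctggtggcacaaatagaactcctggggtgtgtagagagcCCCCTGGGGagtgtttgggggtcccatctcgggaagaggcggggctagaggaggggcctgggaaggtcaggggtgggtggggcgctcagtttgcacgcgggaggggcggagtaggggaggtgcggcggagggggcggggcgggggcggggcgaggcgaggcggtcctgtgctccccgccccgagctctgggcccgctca
Plxna3: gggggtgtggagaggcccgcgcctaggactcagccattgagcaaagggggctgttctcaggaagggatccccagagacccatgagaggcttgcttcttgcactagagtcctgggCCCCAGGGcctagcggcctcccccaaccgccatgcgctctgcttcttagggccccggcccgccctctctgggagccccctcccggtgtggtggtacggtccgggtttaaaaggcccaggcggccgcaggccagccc
Sema7a: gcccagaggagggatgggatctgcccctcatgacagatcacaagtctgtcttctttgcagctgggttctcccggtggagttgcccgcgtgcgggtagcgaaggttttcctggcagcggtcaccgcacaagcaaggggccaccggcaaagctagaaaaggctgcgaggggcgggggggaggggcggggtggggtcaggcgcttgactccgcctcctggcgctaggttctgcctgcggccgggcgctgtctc
The core was present in Plxna3 and, in 2 overlapping placements, in Sema5a, and its letters were not in the stretches shown for Nrp2, Sema3e and Sema7a. Nrp2 and Sema5a had 72.5% and 71.7% G and C, and Sema3e 48.0%. Over the whole 300-base windows, the core was in 11 of 37 windows of the 26 members that have one, and in 13.7% of all 32851 windows of the table. The letters AGGTGTGA of a T-box motif (both strands), searched because Tbx21 and Tbr1 mark projection neurons, were in 1 member window, of Sema4a, and in 1.28% of all windows. Member windows had a median of 63.7% G and C, against 52.7% in all windows, and G and C content was not taken into account in these shares.

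Projection neurons of the 7 types together were then compared with inhibitory neurons, mainly granule and periglomerular cells of the OB, which are the largest other class in these libraries. Of 28 members tested, 14 were called higher in projection neurons, where 15.4% of all genes were called, and 5 in inhibitory neurons (13.9%). The first 14 were 9 ligands (Sema5b, Sema3d, Sema3f, Sema3a, Sema7a, Sema6c, Sema6b, Sema4g and Sema6a), 3 plexins (Plxna4, Plxna3 and Plxna2) and both neuropilins. The other 5 were 4 ligands (Sema3c, Sema4a, Sema3e and Sema4d) and Plxnb1. Plxnb3, Sema3b and Sema3g were too low for the test. The libraries of the 2 classes did not overlap for 14 of the 28 members on the side of projection neurons, where this held for 29.2% of all genes, and for 8 on the side of inhibitory neurons, where it held for 36.8%, so that the second count lies below the share of all genes. The median log2 fold change of the members was 1.01, against 0.01 over all genes.

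Nrp1 had the largest difference, at 345, 304 and 339 CPM in projection neurons and 9.72, 7.04 and 14.8 CPM in inhibitory neurons of mice 1, 2 and 3 (log2 fold change 5.07 ± 0.27 (SE), adjusted p = 4.3e-06, edgeR). Sema3a had 496, 408 and 518 CPM against 44.9, 50.6 and 58.2 CPM (3.28 ± 0.15, adjusted p = 2.2e-06, edgeR). Both the ligand and its receptor subunit were thus higher in the projection neurons. Sema5b, Sema3d and Sema3f were at means of 174, 109.6 and 23.1 CPM in projection neurons and 9.21, 7.49 and 2.18 CPM in inhibitory neurons. Nrp2 was called higher in projection neurons, but its libraries overlapped (26.3, 130.1 and 160.5 CPM against 14.5, 17.3 and 26.3 CPM), and the M1 type, where it is highest, gave 14, 465 and 207 nuclei to these libraries. The part of that number in the spread was not tested.

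In the other direction Sema3c, a class 3 ligand that can bind both neuropilins, was at 177, 169 and 185 CPM in inhibitory neurons and 5.59, 9.64 and 3.62 CPM in projection neurons (log2 fold change -4.71 ± 0.32, adjusted p = 1.3e-05, edgeR). Sema3e had 286, 203 and 253 CPM against 68.7, 92.8 and 108 CPM (-1.38 ± 0.18, adjusted p = 4.0e-04, edgeR). Sema4a, Sema4d and Plxnb1 had means of 7.78, 79.4 and 1.79 CPM against 0.887, 36.1 and 0.526 CPM. Class 3 ligands were thus on both sides, with Sema3a, Sema3d and Sema3f higher in projection neurons and Sema3c and Sema3e in inhibitory neurons. The 7 listed markers of inhibitory neurons summed to 193 to 756 CPM in the projection neuron clusters and 4623 to 5161 CPM in the inhibitory clusters. The 6 listed markers of projection neurons summed to 783 to 975 CPM and 49.5 to 66.3 CPM in the same clusters. These sums took the projection neuron clusters whole, with the unnamed and periglomerular-cell-like subclusters that the libraries of the 7 types leave out. How much of a member's level in the lower class comes from RNA of the other class was not tested. Without mouse 1 the call of Sema6a fell to a log2 fold change of 0.97. Members called higher in inhibitory neurons were 6 with the mouse as a block, by DESeq2 and on library size alone, and 7 without mouse 2.

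**Figure D4:**
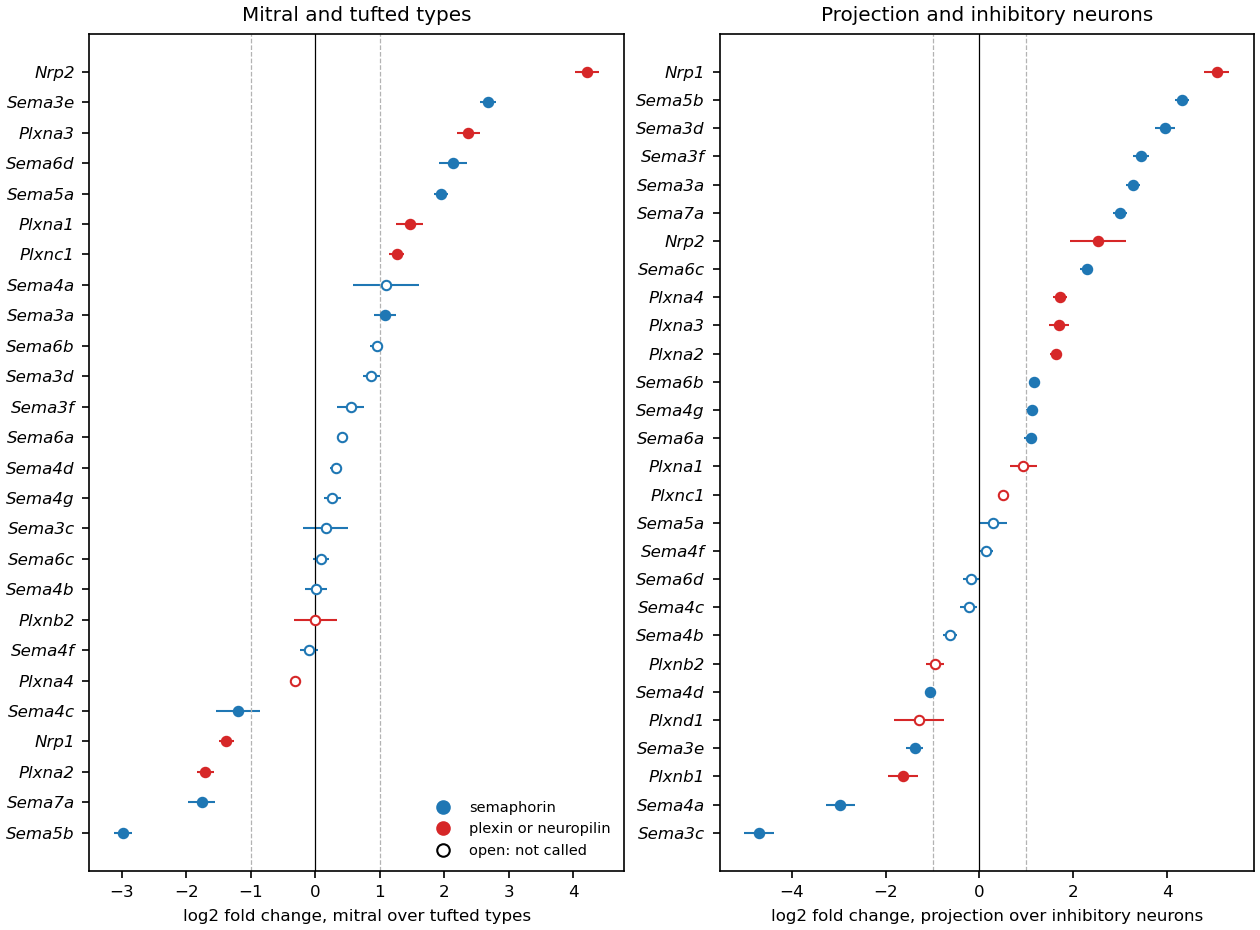
Log2 fold changes with standard errors for the members tested, mitral over tufted types on the left and projection over inhibitory neurons on the right, blue for ligands and red for receptors. Filled symbols mark an adjusted p under 0.05 with an absolute log2 fold change above 1 (dashed lines), 8 and 5 members on the left and 14 and 5 on the right.

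Among the 10 clusters of inhibitory neurons, 27 of 31 members differed (edgeR, adjusted p under 0.05), with 50.8% of all genes called. These were 17 of 20 semaphorins, 8 of 9 plexins and both neuropilins, and Plxnb3, Sema3b, Sema3g and Sema6b were not called. Plxna4 had the widest range, from 7.82, 8.98 and 5.26 CPM in cluster 0 to 997, 725 and 1013 CPM in cluster 7, with 413, 302 and 339 CPM in cluster 8. Sema3e was at 1100.2, 988 and 1150.4 CPM in cluster 6 and at 691, 509 and 563 CPM in cluster 3, against 16.8, 21.2 and 21.7 CPM in cluster 12. Sema3c was at 389.9, 353 and 465 CPM in cluster 3 and 322, 286 and 309 CPM in cluster 0, and at means of 19.7 to 58.4 CPM in the other 8. The high levels of both ligands in the class thus lay in a few of its clusters, Sema3c in clusters 0 and 3 and Sema3e in clusters 6 and 3. Sema3c was among the 10 leading genes of cluster 0 and Sema3e, with the overlapping Gm4128, among those of cluster 6. Plxna2 ranged from 14.9, 20.7 and 9.72 CPM in cluster 15 to 461, 356 and 253 CPM in cluster 17, and Sema5a from 13.3, 14.0 and 0 CPM in cluster 15 to 200.2, 209 and 171 CPM in cluster 1. Nrp1 was low in the class except in cluster 7, at 104, 70.1 and 110.2 CPM, which carries Calb2 among its leading genes and also had the highest Plxna4. The calls of Sema3d and Sema4c were lost without mouse 1 (adjusted p = 0.207 and 0.0704, edgeR), and that of Sema4c without mouse 3 (0.0745).

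**Figure D5:**
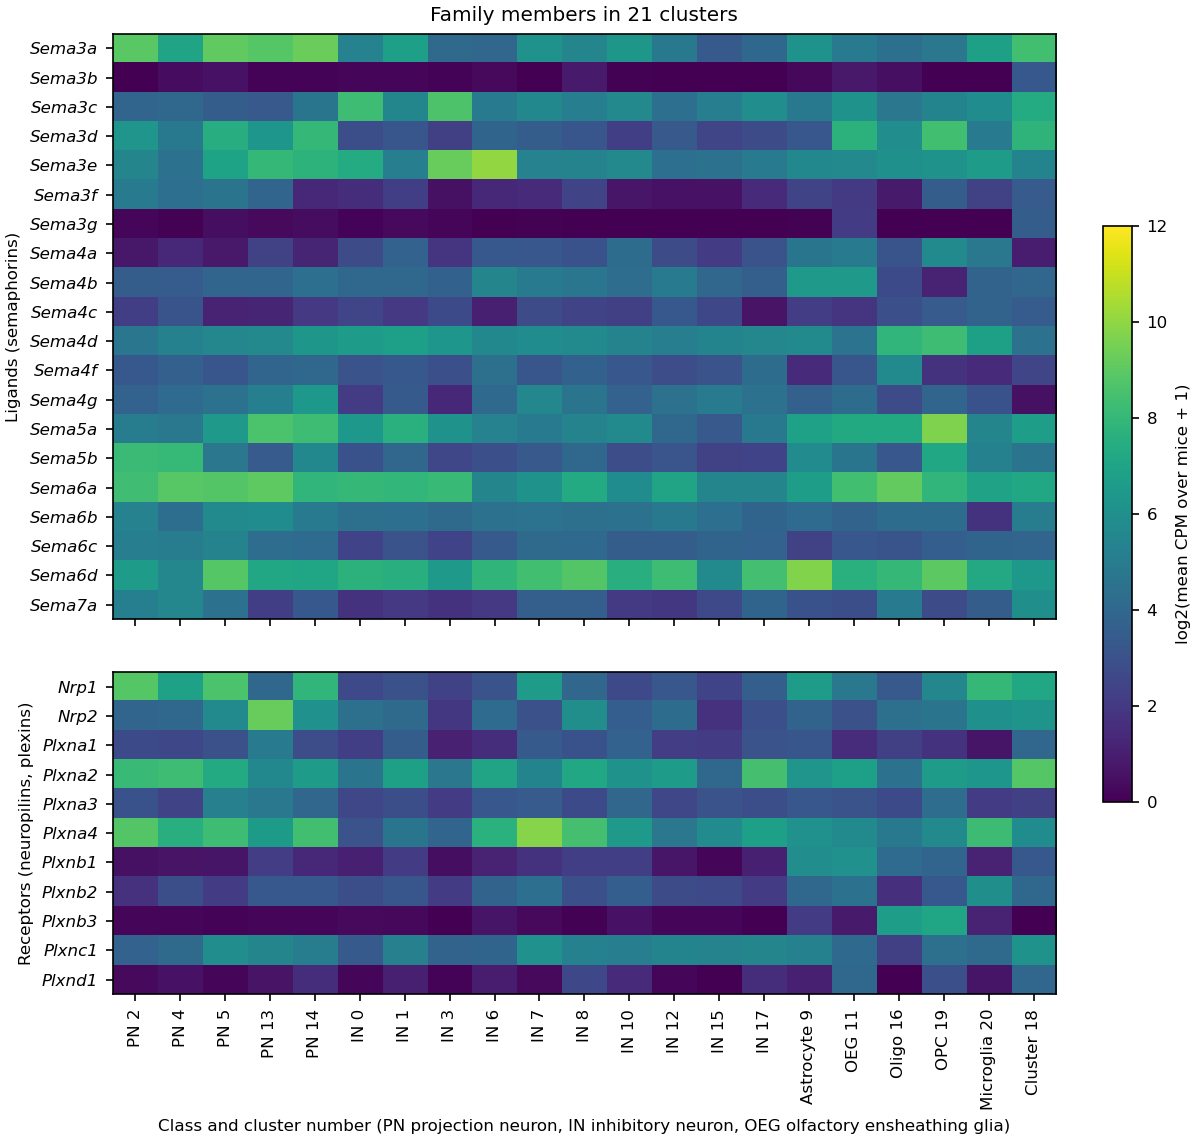
Mean level of each family member over the mice in 21 clusters (columns, with class, where one was named, and cluster number), as log2(CPM + 1) in colour, with ligands above and receptors below and each row read along its own gene. Sema3c and Sema3e are high in a few inhibitory clusters, Plxna4 in inhibitory cluster 7, Sema6d in astrocytes, Sema5a and Plxnb3 in oligodendrocyte precursors, and Plxnb1 in astrocytes and olfactory ensheathing glia.

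Over all clusters, 31 of 31 members differed, with 85.3% of all genes called. Sema3b and Sema3g, with 78 and 104 UMIs in all nuclei, lost the call without mouse 2 (adjusted p = 0.245 and 0.103, edgeR). Glial classes were each set against the mean of the neuron clusters (edgeR, adjusted p under 0.05 and a log2 fold change above 1). Markers of inhibitory neurons were also found in the glial classes, where the 7 listed genes summed to medians of 668 CPM in oligodendrocytes to 1425 CPM in microglia, against 4916 CPM in inhibitory neurons. The 6 listed markers of projection neurons summed to 146 to 349 CPM in microglia, 35.7 to 344 CPM in cluster 18 and 42.2 to 163 CPM in the other 4 glial classes, against 783 to 975 CPM in the whole projection neuron clusters. The part of such RNA in the glial levels was not tested. The lowest sums held 10 nuclei (oligodendrocyte precursors of 1 mouse) to 188 nuclei (astrocytes), so that glial levels carry more counting error than those of the larger neuron clusters.

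Astrocytes had 8 of 31 members called higher, with 15.1% of all genes called. Sema6d was at 743, 751 and 1057 CPM in mice 1, 2 and 3, the highest mean of all clusters. Plxnb1, a receptor for Sema4d, was at 55.7, 41.3 and 77.8 CPM, where its mean over the projection neuron types was 0.526 CPM (log2 fold change against neuron clusters 5.52 ± 0.24 (SE), adjusted p = 9.9e-28, edgeR). Sema4b was at 102, 66.6 and 95.9 CPM. The others were Plxnb3, Sema4a, Nrp1, Sema5b and Plxnb2, the last of which was not called without mouse 2 (adjusted p = 0.0680, edgeR).

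Olfactory ensheathing glia, which wrap the incoming sensory axons, had 10 members called higher (16.9% of all genes). Plxnb1 was at 89.8, 42.4 and 63.8 CPM and Sema4b at 92.8, 69.8 and 105 CPM, both as high as in astrocytes within their spread. The 7 listed astrocyte markers summed to 1020 to 1894 CPM in olfactory ensheathing glia and to 3539 to 5702 CPM in astrocytes. The part of astrocyte RNA in these levels was not tested. Sema3d, at 235, 184 and 209 CPM, separated the classes: astrocytes had 9.46, 10.2 and 6.04 CPM. Plxnd1, the receptor for Sema3e, was at 25.4, 12.6 and 9.30 CPM in these glia and at most 3.47 CPM in any library of the 7 projection neuron types. The others were Sema3g, Sema3b, Sema4a, Plxnb3, Plxnb2 and Sema5a, of which Sema3g, Sema3b and Plxnb3 were not called without mouse 2 (adjusted p = 0.0657, 0.294 and 0.424, edgeR) and Sema3b not by DESeq2 (adjusted p = 0.167).

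Plxnb3 stood for the oligodendrocyte lineage. It was at 63.9, 99.1 and 150.1 CPM in oligodendrocytes and 216, 105 and 81.5 CPM in oligodendrocyte precursors (OPC), and at most 3.30 CPM on average in the other named clusters (log2 fold changes 8.96 ± 0.34 and 9.30 ± 0.33, adjusted p = 7.7e-30 and 1.2e-30, edgeR). Sema4d, a ligand of B-type plexins, was at 224, 98.5 and 400.2 CPM and 457, 187 and 269 CPM in the same classes. The 7 listed oligodendrocyte markers summed to 1339 to 4060 CPM in the OPC cluster and to 9389 to 19790.3 CPM in oligodendrocytes, and Bcas1, Enpp6 and Gpr17 were among the leading genes of the OPC cluster. The part of oligodendrocyte RNA in the OPC levels of Plxnb3 and Sema4d was not tested. Oligodendrocytes had 8 members called higher (11.1% of all genes), the others being Plxnb1, Sema4f, Sema7a, Sema6a, Sema3d and Sema5a. The 7 listed markers of olfactory ensheathing glia summed to 2087 to 2555 CPM in oligodendrocytes and to 11347 to 24184 CPM in those glia. The part of their RNA in the oligodendrocyte levels was not tested. Without mouse 1 Sema4f was not called (adjusted p = 0.325, edgeR) and Sema3d fell to a log2 fold change of 0.98. OPC had 10 (11.0%). Sema5a was at 1085, 564 and 807 CPM and Sema3d at 424, 306 and 253 CPM, their highest means of all clusters, and Sema4a, Plxnb1, Sema5b, Plxnd1, Sema6d and Plxna3 were called as well. Those of Plxnd1 and Plxna3 did not hold with sums of at least 20 nuclei (adjusted p = 0.259 and 0.0644, edgeR) nor without mouse 1 (0.0707 and 0.206) or mouse 2 (0.276 and 0.312), nor that of Plxnd1 without mouse 3 (0.0979). Both were also lost without the filter on low counts (adjusted p = 0.0535 and 0.0692, edgeR).

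Microglia had 5 members called higher (10.9% of all genes), both neuropilins, Plxnb2, Plxna4 and Sema4a. Nrp1 was at 309, 222 and 239 CPM (log2 fold change 3.14 ± 0.30, adjusted p = 4.6e-13, edgeR), and Plxnb2 at 130.0, 37.3 and 19.9 CPM, with mouse 1, of 19 nuclei, well above the others. Nrp2 and Sema4a were not called without mouse 2 (adjusted p = 0.0918 and 0.0896, edgeR), so that 3 members were called higher in that fit. Plxna4 was just under the fold threshold without mouse 1, at 0.93, and with the mouse as a block, at 0.97. The same held with sums of at least 20 nuclei, at 0.92, and without the filter on low counts, at 0.98. Cluster 18, a contrast added after the values had been seen, had 11 (15.1%), Sema3g, Sema3b, Plxnd1, Sema3d, Sema7a, Nrp1, Plxnb1, Plxna2, Sema3c, Sema3a and Nrp2. Plxna2 was at 470.4, 451 and 425 CPM and Sema3a at 328, 293 and 358 CPM, with little spread between mice. Sema3g was at 0, 8.28 and 23.9 CPM and Sema3b at 11.9, 5.52 and 9.56 CPM, the highest means of these 2 rare ligands over all clusters. The listed markers of olfactory ensheathing glia summed to 3649 to 7688 CPM in this cluster, and the part of their RNA was not tested. The call of Plxnb1 was lost without any single mouse (adjusted p = 0.262, 0.0535 and 0.0858 without mice 1, 2 and 3, edgeR).

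Members called lower than in the neuron clusters were fewer in each of these classes. Oligodendrocytes had 7 of 31 (9.42% of all genes), Plxna2, Plxna3, Plxna4, Plxnc1, Sema3a, Sema4b and Sema4g, and olfactory ensheathing glia 7 (7.76%), Nrp2, Plxna1, Plxna4, Plxnc1, Sema3a, Sema4d and Sema6c. OPC had 4 (6.79%), Plxna4, Sema3a, Sema4b and Sema6c, cluster 18 had 4 (8.33%), Sema3e, Sema4d, Sema4g and Sema6d, astrocytes had 3 (5.85%), Sema3d, Sema4f and Sema6c, and microglia 1 (5.78%), Sema6b. Calls that held under each alternative were those of Plxna2, Plxna4 and Plxnc1 in oligodendrocytes, Sema4b in OPC, Sema4g in cluster 18, Sema4f and Sema6c in astrocytes and Sema6b in microglia, and none in olfactory ensheathing glia, where 1 of the 7 was left without mouse 1 and 3 without mouse 3. With the mouse as a block the log2 fold change was -0.95 for Sema3d in astrocytes, -0.99 for Sema4d in olfactory ensheathing glia and -0.97 for Sema4b in oligodendrocytes, and Plxna1 in olfactory ensheathing glia also fell short of the threshold.

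Other genes of the pathway were taken from a list of 26 co-receptors, kinases, GTPases and cytoskeletal effectors. Of the 24 tested between the 7 types, 22 differed (edgeR, adjusted p under 0.05), beside the 64.8% of all genes, and Gsk3b and Cdk5, kinases that act on collapsin response mediator proteins, were not called (adjusted p = 0.0539 and 0.208). Without mouse 2, 14 of 22 were called, where 49.3% of all genes were. Chl1, a cell adhesion molecule that can act as a co-receptor with neuropilins, had the widest range, at a mean of 182 CPM in ET2 and 2.96 CPM in ET4. Rnd1, a GTPase that binds plexins, ranged from 19.1 CPM in M1 (18.6, 18.3 and 20.5 CPM in mice 1, 2 and 3) to 0.969 CPM in ET4, and Mical2, a flavoprotein that acts on actin, from 71.2 CPM in M2 to 6.56 CPM in ET2.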

How the data were processed

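Single nuclei of 3 mice were measured with the 10x 3′ v3 assay, 1 library per mouse. Per the file headers and labels, the deposited values are raw UMI counts per gene and nucleus from Cell Ranger 3.0.2 on mm10 (GRCm38), and the authors removed nuclei with few detected genes or a high mitochondrial share, joined the mice and clustered the nuclei. Per the study's methods, the sort gate left out doublets by the area and height of the forward scatter. Whether intronic reads were counted, and whether doublets were removed later, is not given in the sources used here. No doublet caller was run. The deposited table of nuclei gave mouse, cluster and subcluster, and its other 7 numeric columns were not used.

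Counts were summed per mouse and subcluster, cluster or class, with at least 10 nuclei in a sum, and given as CPM with Python 3.11.15, numpy 2.4.6 and pandas 2.3.3, and plotted with matplotlib 3.10.9. Sums were compared by the quasi-likelihood test of edgeR 4.0.16 in R 4.3.3, with TMM factors, its default filter on low counts and Benjamini-Hochberg adjustment over all genes tested. A call needed an adjusted p under 0.05 and, for a contrast, an absolute log2 fold change above 1. The script was tested on simulated data with 1 setting of the spread for all genes and no mouse effect. Only genes with higher counts were changed there, so that the test does not speak for low members or paired libraries. A fitted fold change of a gene at or near 0 in a group depends on the prior count. Types and classes were named where a cluster carried at least 3 listed markers and no other class led it. The members, marker lists and partner genes were chosen with earlier results of these data known. Values are given per mouse for 7 members named with the families or by the study, and for the members called with the 5 largest changes per direction without overlap of libraries, or, for tests of any difference, the 5 with the widest range, and further members were named after their values were seen.

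Libraries with the same mouse number are from 1 animal and are therefore paired. Their deviations from the mean of each type had a mean r of 0.0952 over 63 same-mouse pairs of libraries and -0.0471 over 126 pairs of different mice, and r was 0.200, 0.263 and 0.314 for projection and inhibitory neurons of mice 1, 2 and 3. Alternatives were DESeq2 1.42.0, library size without TMM, no filter, the mouse as a block, sums of at least 20 nuclei and leaving out each mouse.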

Additional observations from a re-analysis of the deposited data

How the results depend on the processing

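No result changed direction under any alternative run. The count of partner genes that differed between the 7 types was 22 of 24 tested, and leaving out single mice gave 14 to 19, the lowest without mouse 2 with 22 tested and 49.3% of all genes called. The members called between types, classes and clusters, and the sums of higher calls over the 7 types (44) and the 5 glial classes (41), stayed within 1.5 times under each alternative. For single types and classes, higher calls in microglia fell from 5 to 3 without mouse 2. Lower calls in M2 were 2, and 4 on library size alone and 1 without mouse 1; those in M3 were 1, and 0 on library size alone and 2 without the filter, with the block and with sums of at least 20 nuclei; those in ET2 were 4, and 2 on library size alone. Lower calls in olfactory ensheathing glia fell from 7 to 1 and 3 without mouse 1 and 3, to 3 on library size alone and to 4 by DESeq2, those in oligodendrocytes from 7 to 3 without mouse 1, those in OPC from 4 to 1 without mouse 1 and 2 on library size alone, and those in cluster 18 from 4 to 2 and 1 without mouse 1 and 3 and to 1 on library size alone, while microglia had 1, and 2 and 3 without mouse 2 and 3. Of 191 single fold change calls, 28, 21 and 24 were lost without mouse 1, 2 and 3, where 2 more (Sema4a in M1 and T1) could not be tested without mouse 2, 17 on library size alone, 10 by DESeq2, 6 without the filter and 5 with sums of at least 20 nuclei. With the mouse as a replicate block 6 were lost, each with an absolute log2 fold change of 0.95 to 1.00, and of the counts given only lower calls in M3 moved by over 1.5 times; the 6 are Plxna4 in microglia, Sema6c in ET2 and 4 lower calls in glia, given in the text. The block also added calls, with 6 members higher in inhibitory neurons in place of 5 and 7 lower in M1 in place of 6. Scaling by library size shifted the median log2 fold change of all genes by over 0.1 in 9 of 15 contrasts, most in microglia (0.38), cluster 18 (0.36), OPC (0.24) and M3 (0.21). Depth limits the members with few counts, Sema3b and Sema3g above all, with 78 and 104 UMIs, and the classes with the fewest nuclei.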

Other observations

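Subclusters of the projection neuron clusters that could not be named also carried family members. Subcluster 2, with 943 nuclei, had Adamts19, Stxbp6, Rgs6, Slit3 and Dlx6os1 among its leading genes, of which the first 4 also lead inhibitory clusters 0 or 1, and its median depth was 2.39 times that of all nuclei of the same mouse. It had Nrp1 at 218, 238 and 288 CPM in mice 1, 2 and 3 and Nrp2 at 15.0, 19.9 and 19.9 CPM. Its Sema3c level was 70.9, 61.6 and 49.1 CPM, above each library of the 7 named types, and Sema3c is itself a leading gene of inhibitory cluster 0. The part of mixed nuclei in these levels was not tested. Subcluster 8, with 126 nuclei and a relative depth of 1.86, had Nrp1 at 274, 165 and 173 CPM and Nrp2 at 174, 170.2 and 159 CPM. Its leading genes held Slc1a3 and Gpc5, the second of which also leads astrocyte cluster 9. The part of mixed nuclei in the levels of subcluster 8 was not tested. The periglomerular-cell-like subcluster, with enough nuclei for a sum in mouse 2 only, had Sema3e at 432 CPM and Nrp2 at 70.5 CPM.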
